A study of Mus musculus with 12 samples.

Results

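The epidermis of wild type mice was compared with whole skin of wild type mice, gene by gene, in RNA-seq libraries from skin of C57BL/6 mice aged 10 weeks. The comparison took the 3 libraries titled Epidermis WT and the 3 titled Skin WT, 6 of the 12 libraries of the series. The other 6 come from mice with a conditional knockout of Adam17 (floxed Adam17 alleles with Sox9-Cre) and entered 1 alternative fit only. Both groups used here are labelled wild type, with no Cre and no floxed allele named for them. Libraries were made from 1 ug of total RNA with a stranded mRNA kit and held between 12208522 and 16743144 expected counts, which are the read numbers that RSEM assigns to each gene. Of 47643 gene IDs, 14596 passed the expression filter and were tested. How the epidermis was separated, from which body site the skin came and whether each library stands for a different mouse could not be read from the sources used here. The p-values therefore measure the spread between these libraries, which may be technical.

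The epidermis is a stratified epithelium. Basal keratinocytes sit on the basement membrane, divide, and send daughter cells upward through the spinous and granular layers, which change their keratins, build a lipid barrier and end as the cornified envelopes of dead cells. Langerhans cells, dendritic epidermal T cells, melanocytes and Merkel cells live among the keratinocytes, and hair follicles and sebaceous glands grow down from it. Whole skin holds the epidermis itself and, below it, the dermis with fibroblasts, vessels, nerves, macrophages and mast cells, a layer of fat and, in the mouse, a sheet of skeletal muscle. Every fold below is epidermis over whole skin, so it compares a part with a whole that contains it. In bulk RNA, fewer cells of a type and less RNA per cell cannot be told apart.

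A gene is called higher or lower where its Benjamini-Hochberg adjusted p in edgeR's quasi-likelihood test was under 0.05. Called higher in epidermis were 2561 genes (17.5% of those tested) and called lower 3697 (25.3%). Counts of called members of lists, families and pairs below are to be read beside these shares. The median log2 fold change was 0.84 among the genes called higher and -1.86 among those called lower, against -0.07 over all genes tested. At least 4-fold higher were 129 genes (0.884%). At least 16-fold higher were 26 genes (0.178%) and at least 16-fold lower 1018 (6.97%). Of the genes called lower, 258 had no read in any epidermis library, and 6 of the genes called higher had none in whole skin. The 3 values of a tissue did not overlap the 3 of the other in 56.3% of the genes tested.

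Some properties of the whole comparison touch the results that follow. Among the whole skin libraries, Skin WT 1 stood apart, with a rank correlation of 0.95 and 0.964 with the other whole skin libraries against at least 0.985 between any other libraries of a group. Transcripts on the skeletal muscle list summed to 108621 TPM (a level per transcript length, summing to the same total in each library) there and to 16161 and 41979 TPM in Skin WT 2 and Skin WT 3. Without Skin WT 1, 3388 genes were higher and 4442 lower, and without Skin WT 3 the numbers were 1382 and 2816. Of the calls, 40.9% were higher with TMM scaling and 23.6% with scaling to total counts, which moved the median log2 fold change by -0.24. Transcript length moved with the comparison. When tested genes were divided into 5 equal groups by effective length, the shortest group (13 to 1164 bases) had a median log2 fold change of 0.45, with 35% of its genes higher, and the longest group (3897 to 84213 bases) had -0.47, with 2.77% higher. Length was therefore also removed as a trend from each library, an alternative chosen after seeing the data, which kept 1793 of the 2561 higher calls and 3194 of the 3697 lower calls. The part that length has in single results was otherwise not tested. The ratio of mean TPM values between the tissues had a median of -0.55 (log2). Summed TPM of a list, given below for some lists in both tissues, carries that shift.

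The labelled tissues carried the markers of their names. RNA of dermal cells and of the layers below was scarce in the epidermis libraries. Levels are given as CPM, counts relative to the library size scaled by TMM, in the order of libraries 1, 2 and 3 of each tissue. Of the 30 fibroblast and dermal matrix genes, 29 were lower, with a median log2 fold change of -7.20. Lum, the collagen-binding proteoglycan lumican, measured 0.174, 0.134 and 0.172 CPM in epidermis and 66.00, 83.6 and 109.6 CPM in whole skin (log2 fold change -9.02, SE 0.34, edgeR adjusted p = 4.62e-06). All 3 epidermis libraries lay far below all 3 whole skin libraries. Dcn, which encodes decorin, was at 0.610, 5.15 and 3.88 CPM in epidermis and 333, 512 and 606 CPM in whole skin, again without overlap, and was 147-fold lower (edgeR adjusted p = 0.000162). Tnxb, which encodes the matrix protein tenascin-X, was the fibroblast list's exception, at 125, 148 and 121 CPM in epidermis and 126, 166 and 158 CPM in whole skin (log2 fold change -0.20, SE 0.16, edgeR adjusted p = 0.349). It was called higher with the length trend removed (log2 fold change 0.50, adjusted p = 0.0371 in edgeR).

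**Figure D1:**
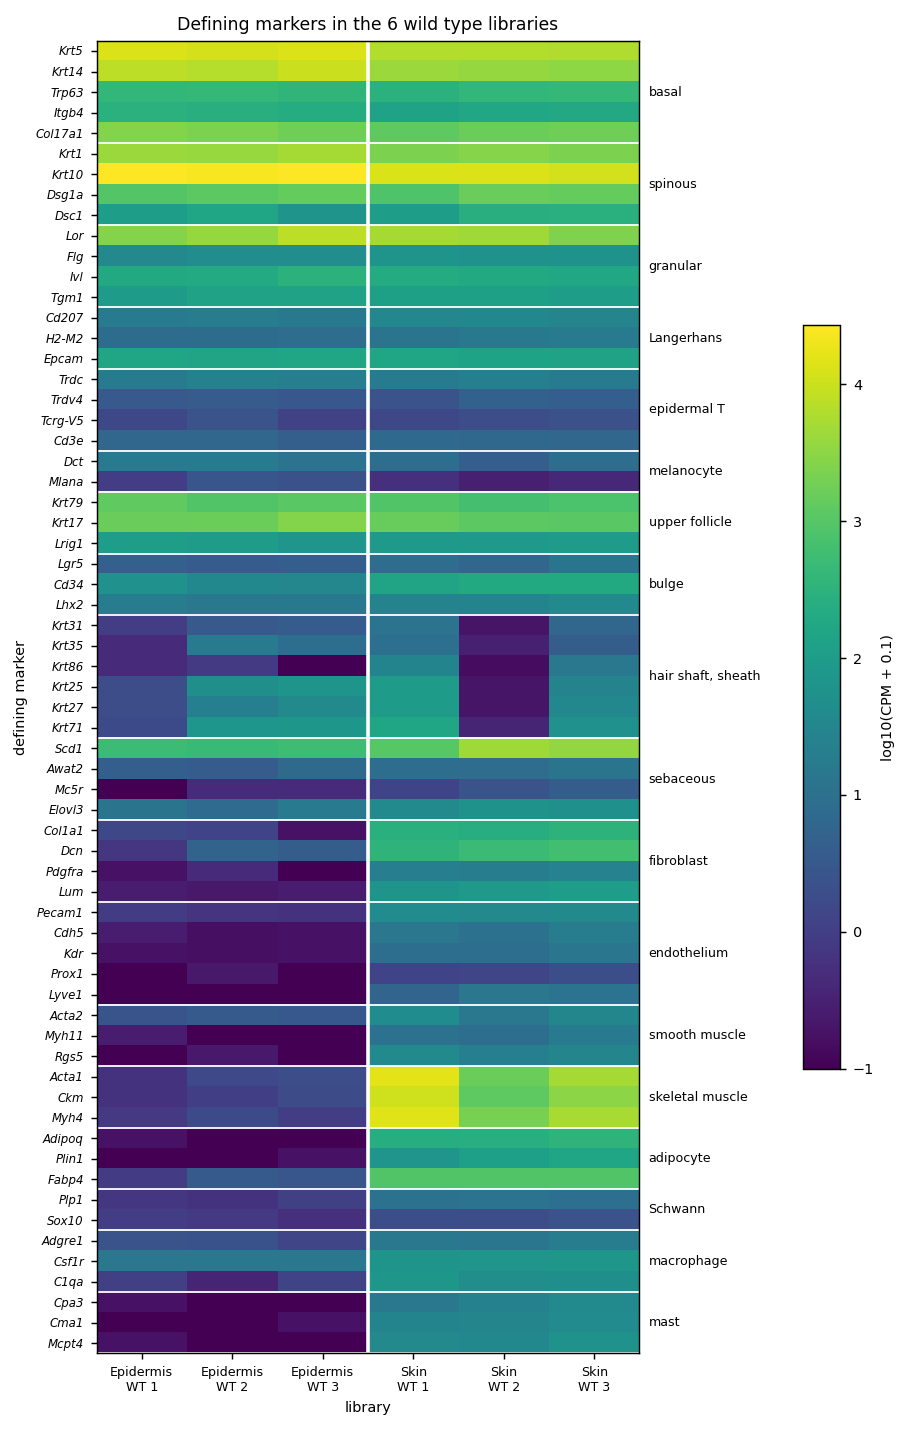
Defining markers of the cell types in skin (rows) in each of the 6 wild type libraries (columns), coloured by log10 of TMM-scaled CPM plus 0.1. Markers of fibroblasts, endothelium, skeletal muscle, adipocytes and mast cells are dark in the 3 epidermis libraries, keratinocyte markers are bright in all 6, and Krt25, Krt27 and Krt71 are darkest in Epidermis WT 1 and Skin WT 2.

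Vessels and fat behaved in the same way. All 18 blood endothelium genes and all 6 lymphatic genes were lower, with medians of -6.42 and -7.28, and -6.22 and -6.63 when genes with no epidermis read were set at their bounds. Pecam1, the adhesion molecule of endothelial junctions, was at 0.784, 0.602 and 0.517 CPM in epidermis and 42.1, 35.1 and 39.5 CPM in whole skin (log2 fold change -5.92, SE 0.21, edgeR adjusted p = 4.62e-06). Lyve1, the hyaluronan receptor of lymphatic vessels, had no read in epidermis and 554 in whole skin, so it was at least 141-fold lower. Here and below, a bound sets the zero at 3 reads over the group, bounds and read ratios use the same TMM-scaled library sizes as CPM, and bounds and intervals of read ratios cover counting error only. All 20 adipocyte genes were lower (median -8.99). Adipoq, the adipocyte hormone adiponectin, had 1 read in epidermis and 14266 in whole skin, a whole skin to epidermis ratio of 10869.6 (95% interval 1951 to 429358). Fabp4, the fatty acid binding protein of fat and vessels, was at 0.784, 3.34 and 2.76 CPM in epidermis and 917, 893 and 908 CPM in whole skin, and even its highest epidermis value was far below the lowest whole skin value.

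Skeletal muscle gave the deepest falls. All 24 genes of the list were lower, with a median log2 fold change of -12.26, and the list summed to 23.7 to 24.97 TPM in epidermis and 16161 to 108621 TPM in whole skin. Acta1, the skeletal muscle actin, measured 0.523, 1.47 and 1.81 CPM in epidermis and 15968, 1629 and 4873 CPM in whole skin (log2 fold change -12.51, SE 1.18, edgeR adjusted p = 0.000194). Its whole skin values differed almost 10-fold among themselves, with Skin WT 1 highest and Skin WT 2 lowest, and none came near the epidermis values. Of the 12 largest falls under the rule for named genes, Mylk4 (a myosin light chain kinase) was at least 1224-fold lower, Rpl3l (the muscle form of a ribosomal protein) at least 1391-fold, Smyd1 (a muscle histone methyltransferase) at least 1122-fold and Cox8b (a cytochrome oxidase subunit of muscle and brown fat) at least 1024-fold, each with no epidermis read. Myl1, a myosin light chain, had 3 reads in epidermis and 78115 in whole skin, a ratio of 19839 (95% interval 6788 to 96205). Smooth muscle and pericyte genes were lower in 13 of 15 cases (median -4.28). Acta2, the smooth muscle actin, was at 2.44, 3.41 and 3.02 CPM in epidermis and 43.2, 14.6 and 30.4 CPM in whole skin (log2 fold change -3.30, SE 0.41, edgeR adjusted p = 0.000658). Notch3 was not called, at 91.7, 98.4 and 52.7 CPM in epidermis and 60.4, 106 and 113 CPM in whole skin, and the values of the groups overlapped.

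The promoter of Acta1 is shown because the 3 whole skin libraries differed so widely in it and the epidermis hardly held it. The window is the 250 bases before the transcription start in RefSeq (GRCm38.p6, chr8:123894776-123895025, minus strand), and capitals mark, in order, the E-box CAGCTG of myogenic factors, a CArG box, the TEAD motif CATTCC and the TATA box TATAAA just before the start.
Acta1: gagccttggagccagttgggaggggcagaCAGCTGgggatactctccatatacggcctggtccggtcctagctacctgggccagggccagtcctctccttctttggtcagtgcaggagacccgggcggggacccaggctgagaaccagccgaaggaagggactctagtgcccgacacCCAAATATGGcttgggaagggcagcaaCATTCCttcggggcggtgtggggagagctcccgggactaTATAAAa
The E-box CAGCTG stood in 12 of 21 promoter windows (57.1%) of the skeletal muscle list, where a window spans 250 bases before to 50 after a start and either strand counts. It stood in 15.8% of the windows of all genes tested and 16.3% of all promoters in the table. CATTCC stood in 38.1% of the muscle windows against 12.6% of those of genes tested. The MEF2 motif, named for transcription factors of muscle and also searched for, stood in only 1 of the 21 muscle windows (4.76%). Its share was 3.08% in the windows of genes tested. A match describes the letters only.

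Nerve, macrophage and mast cell genes were lower as well. In the Schwann cell and nerve list 1 of 15 tested members were higher and 13 lower (median -2.51). The 1 higher member was Egr2, an early response transcription factor also known from myelinating Schwann cells, at 108, 224 and 229.7 CPM in epidermis and 38.1, 45.7 and 47.1 CPM in whole skin (log2 fold change 2.10, SE 0.29, edgeR adjusted p = 0.00112). Among macrophage genes, 1 of 19 tested members were higher and 17 lower. Lyz2, lysozyme, was at 0.871, 0.602 and 0.776 CPM in epidermis and 214, 138 and 211 CPM in whole skin (log2 fold change -7.97, SE 0.29, edgeR adjusted p = 4.62e-06), and F13a1, a coagulation factor subunit of resident macrophages, had 1 read in epidermis and 3136 in whole skin. Cbr2, a carbonyl reductase, was the higher member at 89.2, 91.1 and 99.7 CPM in epidermis and 71.3, 49.97 and 53.2 CPM in whole skin (log2 fold change 0.68, SE 0.17, edgeR adjusted p = 0.0133). Of 8 tested mast cell genes, 7 were lower. Tpsb2, a mast cell tryptase, had no epidermis read and was at least 262-fold lower, while Mrgprb2 was not called, at 5.14, 7.63 and 10.3 CPM in epidermis and 3.90, 6.21 and 5.67 CPM in whole skin.

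Blood and lymphocyte genes were mixed. The haemoglobin genes gave opposite signs, with Hbb-bs at 5.40, 7.49 and 1.72 CPM in epidermis and 51.7, 26.7 and 34.9 CPM in whole skin and Hba-a1 at 70.4, 64.1 and 126 CPM in epidermis and 54.4, 37.5 and 29.6 CPM in whole skin. These are near-identical copies of other globin genes, between which reads can be split, so the single values are uncertain. Trbc2, a constant region of the T cell receptor beta chain, was at 81.1, 72.2 and 107 CPM in epidermis and 41.2, 43.5 and 30.8 CPM in whole skin (log2 fold change 1.17, SE 0.20, edgeR adjusted p = 0.00306). Ighm, the constant region of immunoglobulin M, was at 4.27, 3.48 and 3.19 CPM in epidermis and 35.9, 20.8 and 31.4 CPM in whole skin and 8.05-fold lower (edgeR adjusted p = 0.000121). Only 4 of 14 genes of that list passed the filter, and Cd4, Cd8a, Trac, Cd79a and Ms4a1 did not.

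**Figure D2:**
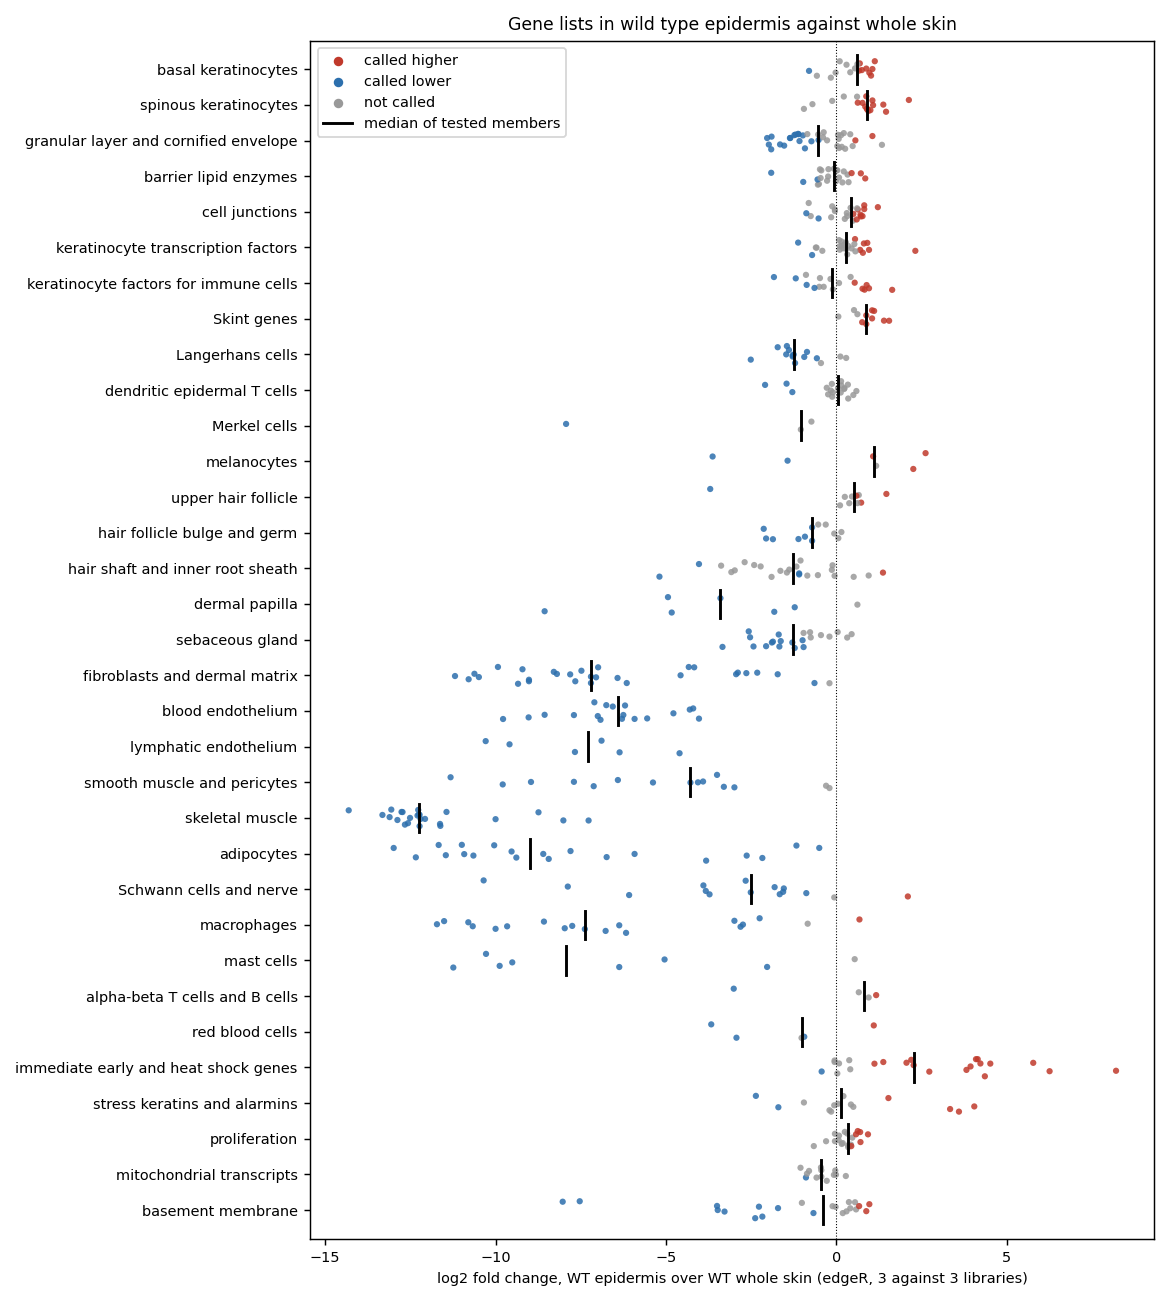
Each tested member of the 33 gene lists (points) by its fitted log2 fold change, epidermis over whole skin, coloured by call, with the list's median as a black bar. Lists of dermal and deeper cell types lie far to the left, the medians of keratinocyte lists within 1 log2 unit of zero, and the immediate early list reaches furthest to the right. Points of genes with no read in a group depend on the fit's prior count and are no bounds.

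Among the called keratinocyte genes, with all 6 libraries, the spinous genes and all but 1 of the basal genes were higher in epidermis, and all but 2 of the granular and cornified envelope genes were lower. Of 17 basal genes, 8 were higher and 1 lower (median 0.62), and with the length trend removed 12 and 1. Krt5 measured 13948, 12261 and 13762 CPM in epidermis and 6498, 6493 and 6141 CPM in whole skin, and Krt14, its partner in the basal keratin filament, 7616, 6695 and 9680.2 CPM in epidermis and 4005, 3743 and 3204 CPM in whole skin. Both had every epidermis value above every whole skin value, with folds of 2.09 and 2.19 (edgeR adjusted p = 0.00355 and 0.00507). Col7a1, the anchoring fibril collagen that keratinocytes secrete, was at 212, 176 and 135 CPM in epidermis and 82.6, 97.9 and 85.7 CPM in whole skin (log2 fold change 0.97, SE 0.19, edgeR adjusted p = 0.005). Lamb3, a chain of the laminin under hemidesmosomes, had a log2 fold change of 0.88, adjusted p = 0.00268, and Itgb4, the hemidesmosome integrin, 0.67, adjusted p = 0.0181. Trp63, the transcription factor that maintains basal cells, did not pass the test, at 399, 413 and 356 CPM in epidermis and 288, 389 and 413 CPM in whole skin. Itgb1, an integrin subunit that many dermal cells also make, was the lower member at 112, 113 and 84.7 CPM in epidermis and 172, 179.9 and 186 CPM in whole skin (log2 fold change -0.80, SE 0.16, edgeR adjusted p = 0.00507).

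Of 18 spinous genes, 13 were higher and none lower (median 0.89). It was 10 higher and none lower both with the length trend removed and with total counts, and without Skin WT 1 it was 12 higher and 2 lower. Krt10, the main suprabasal keratin, was at 26167, 23806 and 26881 CPM in epidermis and 12928, 14177 and 11268 CPM in whole skin (log2 fold change 1.00, SE 0.21, edgeR adjusted p = 0.00725), and Krt1, its partner, at 4153, 3893 and 5089 CPM in epidermis and 2269.7, 2739 and 2276 CPM in whole skin (log2 fold change 0.85, SE 0.20, edgeR adjusted p = 0.0109). No value of either gene overlapped between the tissues. Per length Krtdap, a secreted protein of differentiating keratinocytes, was the most abundant transcript of both tissues, at 24034 ± 3511 TPM in epidermis and 17781 ± 5102 TPM in whole skin (mean ± SD of 3 libraries). Krt10 was at 12786 ± 772 TPM in epidermis, close to Rplp1, a protein of the ribosome's stalk, at 12879 ± 2949 TPM. Sfn, which encodes the 14-3-3 sigma adaptor of stratified epithelia, had the largest rise of the list, at 3052, 3361 and 6067 CPM in epidermis and 1154, 979 and 714 CPM in whole skin (log2 fold change 2.13, SE 0.33, edgeR adjusted p = 0.0018). Lgals7, the keratinocyte galectin, was at 4028, 3254 and 5788 CPM in epidermis and 1996, 1583 and 1163 CPM in whole skin, and Ly6d at 1530.4, 1157 and 1502 CPM in epidermis and 563, 601 and 441 CPM in whole skin, with folds of 2.76 and 2.61. Dsc1, the upper layer desmocollin, was not called, with 106, 164 and 64.1 CPM in epidermis and 110.2, 251 and 283 CPM in whole skin, and the tissues overlapped.

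The promoter of Sfn is given as that of the spinous list member with the largest rise (GRCm38.p6, chr4:133602169-133602418, minus strand). Capitals mark a match to the Grainyhead-like motif AACCNGTT, named for transcription factors of epithelial barriers.
Sfn: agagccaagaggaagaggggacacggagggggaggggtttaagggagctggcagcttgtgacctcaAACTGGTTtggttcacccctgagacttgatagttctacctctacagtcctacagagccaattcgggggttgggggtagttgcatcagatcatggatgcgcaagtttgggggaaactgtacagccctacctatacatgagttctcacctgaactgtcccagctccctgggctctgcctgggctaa
AACCNGTT stood in 4 of 76 windows (5.26%) of the genes called at least 4-fold higher. It stood in 45 of 2260 windows (1.99%) of the genes called higher at any fold. The share was 1.86% in the windows of genes tested and 2.09% in all promoters.

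Of 35 genes of the granular layer and cornified envelope, 2 were higher and 17 lower (median -0.53). Another 16 did not pass the test, among them proteins of the envelope core. Lor, loricrin, was at 2652, 3647 and 7609 CPM in epidermis and 4961, 4533 and 2444 CPM in whole skin, with Epidermis WT 3 highest and Skin WT 3 lowest and the others between, and the test did not pass (log2 fold change 0.22, SE 0.43, edgeR adjusted p = 0.701). Ivl, involucrin, was at 195, 210.2 and 314 CPM in epidermis and 221, 197 and 183 CPM in whole skin and Tgm1, the transglutaminase that cross-links envelopes, at 98.96, 133 and 135 CPM in epidermis and 119, 124 and 106 CPM in whole skin. Neither was called. Flg, profilaggrin, was 1.44-fold lower, at 35.2, 44.9 and 46.4 CPM in epidermis and 63.6, 59.98 and 58.1 CPM in whole skin (edgeR adjusted p = 0.0243).

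The late cornified envelope genes carried most of the lower calls. In that family 13 of 16 tested members were lower and none higher (median -1.21). With the length trend removed it was 15 of 16 with a median of -1.89, and without Skin WT 1 it was 13 of 16. Lce1d measured 21.8, 26.4 and 34.1 CPM in epidermis and 119, 124 and 81.1 CPM in whole skin (log2 fold change -1.98, SE 0.23, edgeR adjusted p = 0.000527). Lce1i measured 12.8, 18.2 and 29.1 CPM in epidermis and 68.5, 66.4 and 53.5 CPM in whole skin (log2 fold change -1.65, SE 0.29, edgeR adjusted p = 0.00314). In both genes Epidermis WT 3 was the highest of the epidermis libraries and Skin WT 3 the lowest of the whole skin libraries, and the groups did not overlap. On chromosome 3 a run of 9 neighbouring tested genes from Lce1e to Lce1l, with Kprp (a keratinocyte proline-rich protein) among them, were all lower, at positions 92707401 to 92851286 of GRCm38 (median -1.36). Lce genes resemble each other in sequence, so RSEM may have split reads between them. Of the higher members, Klk5, a protease of corneocyte shedding, was at 332, 288 and 467 CPM in epidermis and 194, 181 and 146 CPM in whole skin (log2 fold change 1.06, SE 0.22, edgeR adjusted p = 0.00636), and Casp14, a caspase of the cornified layer, at 107, 103 and 89.6 CPM in epidermis and 53.3, 69.99 and 79.5 CPM in whole skin (log2 fold change 0.56, SE 0.18, edgeR adjusted p = 0.0347).

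**Figure D3:**
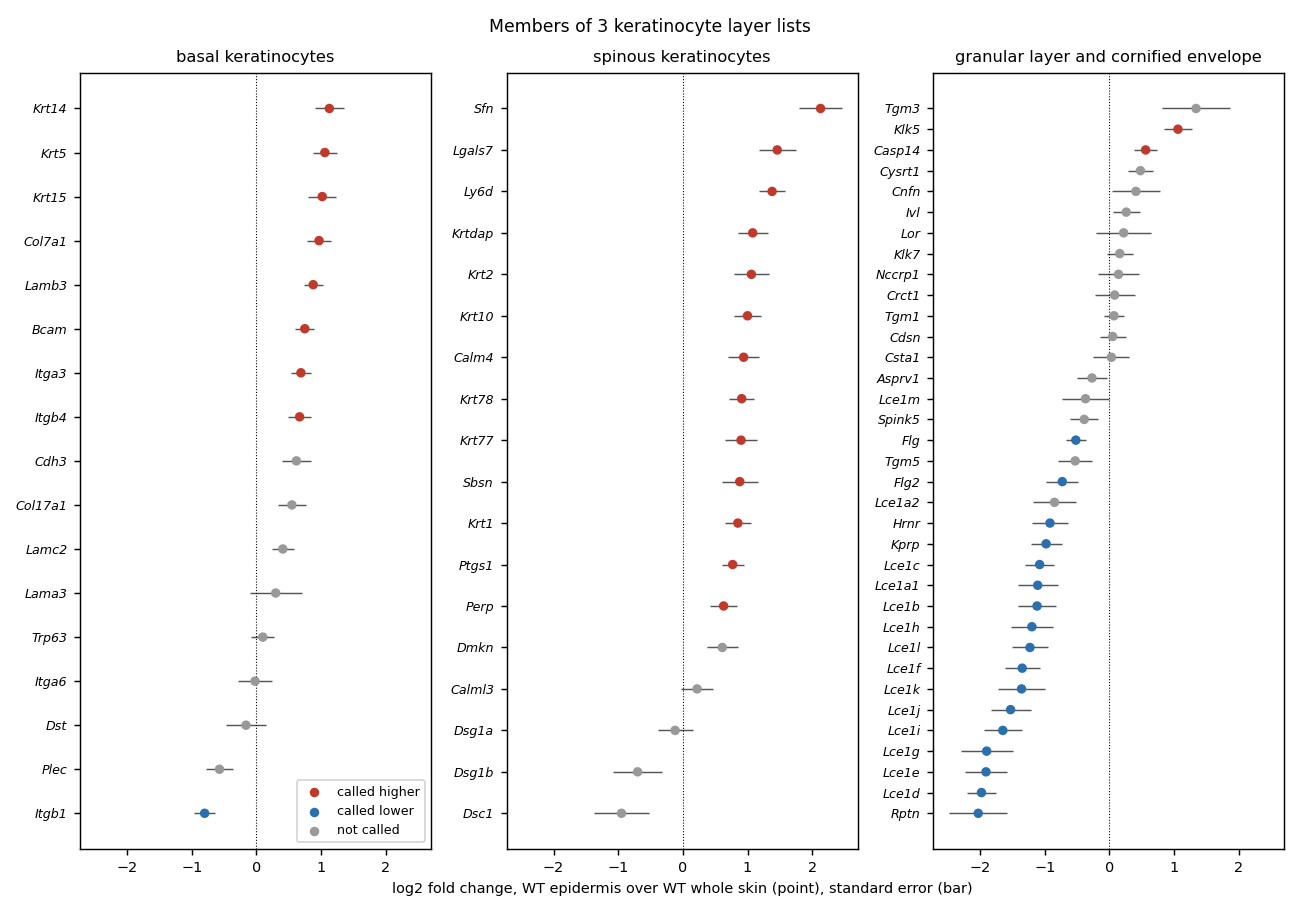
Log2 fold change of each tested member of the basal, spinous and granular or cornified lists (points) with its standard error (bars), epidermis over whole skin, coloured by call. Called basal and spinous genes lie to the right of zero except Itgb1, and the Lce1 genes lie to the left.

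Enzymes of the lipid barrier had a median of -0.07 as a list, with 3 of 23 higher and 3 lower, 2 and 4 with total counts and 3 and 6 without Skin WT 1. Acer1, an alkaline ceramidase, was at 365, 343 and 448 CPM in epidermis and 209, 247 and 188 CPM in whole skin (log2 fold change 0.85, SE 0.18, edgeR adjusted p = 0.00681). Fa2h, a fatty acid hydroxylase also known from sebaceous glands, was at 51.05, 35.5 and 62.2 CPM in epidermis and 126, 213 and 219 CPM in whole skin (log2 fold change -1.91, SE 0.28, edgeR adjusted p = 0.00153). Junction genes were higher in 9 of 23 cases and lower in 2 (median 0.42), against 4 and 3 with total counts, 7 and 4 without Skin WT 1, and 14 and 2 with the length trend removed. Gjb5, an epidermal connexin, was at 277, 235 and 409 CPM in epidermis and 140.3, 147 and 107 CPM in whole skin (log2 fold change 1.22, SE 0.24, edgeR adjusted p = 0.00512). Pkp3, a desmosomal plakophilin, and Evpl, envoplakin, were 1.76-fold and 1.77-fold higher (edgeR adjusted p = 0.00481 and 0.00758). Gja1, the connexin shared with many dermal cells, was lower at 130.1, 151 and 137 CPM in epidermis and 170.0, 203 and 226 CPM in whole skin (log2 fold change -0.52, SE 0.16, edgeR adjusted p = 0.0296), and Dsp, desmoplakin, was not called, at 2899.9, 3317 and 2209.8 CPM in epidermis and 1975, 3356 and 3303 CPM in whole skin. Dsp was called higher with the length trend removed (log2 fold change 0.57, adjusted p = 0.0125 in edgeR).

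Among keratinocyte transcription factors, 7 of 26 were higher and 2 lower (median 0.28), against 3 and 3 with total counts and 9 and 4 without Skin WT 1. Zfp750, a regulator of terminal differentiation, was at 197, 268 and 299 CPM in epidermis and 111, 143 and 139 CPM in whole skin (log2 fold change 0.96, SE 0.20, edgeR adjusted p = 0.00631). Hopx was at 203, 196 and 199 CPM in epidermis and 118, 107 and 94.2 CPM in whole skin (log2 fold change 0.91, SE 0.14, edgeR adjusted p = 0.00179). Elf3, an ETS factor of epithelia named here after its value was seen, had the largest rise of the list, at 2.18, 1.47 and 3.28 CPM in epidermis and 0.506, 0.103 and 0.784 CPM in whole skin (log2 fold change 2.32, SE 0.61, edgeR adjusted p = 0.0175). It was not called without Epidermis WT 1 or Epidermis WT 3 (edgeR adjusted p = 0.0528 and 0.0734). Prdm1, a repressor in the granular layer and in sebaceous and immune cells, was lower at 12.5, 22.1 and 18.9 CPM in epidermis and 27.04, 47.6 and 41.99 CPM in whole skin (log2 fold change -1.12, SE 0.27, edgeR adjusted p = 0.0133), and Sox9, a follicle stem cell factor, was 1.63-fold lower (edgeR adjusted p = 0.0127). Of 20 proliferation genes 6 were higher and none lower (median 0.34), and with total counts 2 were higher and 1 lower. Tyms, thymidylate synthase, was at 20.6, 23.8 and 26.4 CPM in epidermis and 11.1, 13.8 and 12.2 CPM in whole skin (log2 fold change 0.93, SE 0.16, edgeR adjusted p = 0.00325). Top2a, a mitotic topoisomerase, was not called, at 39.98, 43.6 and 40.3 CPM in epidermis and 34.9, 34.3 and 35.2 CPM in whole skin.

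Genes that keratinocytes use to address immune cells split both ways. Of 18 (median -0.14), 6 were higher (33.3%) and 4 lower (22.2%), beside 17.5% and 25.3% of all genes tested. The counts were 3 and 6 with total counts and 5 and 7 with the length trend removed. Ccl27a, a chemokine that draws skin-homing T cells, measured 478, 325 and 432 CPM in epidermis and 178, 109 and 109.9 CPM in whole skin (log2 fold change 1.64, SE 0.25, edgeR adjusted p = 0.00179). Il34, the cytokine that Langerhans cells depend on, measured 193, 169.8 and 178 CPM in epidermis and 89.7, 101 and 86.9 CPM in whole skin (log2 fold change 0.96, SE 0.13, edgeR adjusted p = 0.00117). In both, every epidermis library lay above every whole skin library. Tgfb2 was lower at 3.48, 2.54 and 2.33 CPM in epidermis and 11.2, 8.31 and 10.2 CPM in whole skin (log2 fold change -1.83, SE 0.24, edgeR adjusted p = 0.000967), and Il1a, an alarmin stored in keratinocytes, at 3.75, 5.82 and 6.38 CPM in epidermis and 9.11, 13.7 and 13.6 CPM in whole skin (log2 fold change -1.19, SE 0.27, edgeR adjusted p = 0.00975). Skint genes, immunoglobulin-like membrane proteins made by keratinocytes, were higher in 8 of 11 cases and lower in none (median 0.88). Skint1, which is needed for the dendritic epidermal T cells to develop, was at 49.5, 49.1 and 49.5 CPM in epidermis and 14.1, 17.8 and 18.5 CPM in whole skin (log2 fold change 1.55, SE 0.15, edgeR adjusted p = 0.000215). Skint genes are close copies of each other, and reads may have been split between them. With total counts 4 Skint genes were higher, and with the length trend removed 6.

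The T cells themselves showed another pattern. Of 19 tested genes of the dendritic epidermal T cell list, none was higher and 3 were lower, with a median of 0.05 that changed sign to -0.18 with total counts and -0.31 with the length trend removed. Trdc, the constant region of the delta chain, was at 16.1, 24.6 and 21.03 CPM in epidermis and 16.5, 21.9 and 17.6 CPM in whole skin, Trdv4, the delta variable segment of these cells, at 3.14, 3.48 and 2.93 CPM in epidermis and 2.39, 4.67 and 4.16 CPM in whole skin, and Tcrg-V5, their gamma segment, at 1.39, 2.34 and 1.03 CPM in epidermis and 1.37, 1.80 and 2.11 CPM in whole skin. In all 3 the tissues overlapped and none was called, with log2 fold changes of 0.14, -0.24 and -0.13. The lower genes were Tyrobp, Fcer1g and Ptprc, which other immune cells also express. Tyrobp, a signalling adaptor, was at 6.45, 4.48 and 4.31 CPM in epidermis and 26.8, 16.1 and 21.8 CPM in whole skin (log2 fold change -2.09, SE 0.26, edgeR adjusted p = 0.000652).

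Langerhans cell genes were lower in the epidermis libraries, in 12 of 15 cases with none higher (median -1.25). Cd207, langerin, the defining protein of their granules, was at 16.2, 18.8 and 15.3 CPM in epidermis and 33.2, 33.5 and 29.7 CPM in whole skin (log2 fold change -0.94, SE 0.14, edgeR adjusted p = 0.00188). H2-M2 was at 8.28, 8.23 and 8.53 CPM in epidermis and 12.1, 15.5 and 17.9 CPM in whole skin (log2 fold change -0.86, SE 0.19, edgeR adjusted p = 0.00847). In both genes the groups did not overlap, and all 3 epidermis libraries were low. Among the class II antigen presentation genes of the list, H2-Aa was at 81.1, 83.8 and 79.7 CPM in epidermis and 230.5, 209 and 239 CPM in whole skin (log2 fold change -1.47, SE 0.13, edgeR adjusted p = 0.00015), and Ciita, their master regulator, at 1.13, 1.07 and 0.948 CPM in epidermis and 4.41, 6.11 and 7.48 CPM in whole skin (log2 fold change -2.51, SE 0.29, edgeR adjusted p = 0.000539). Macrophages and dermal dendritic cells also express the class II genes, and the macrophage list moved the same way, from 741 to 1029 TPM in whole skin and 111 to 122 TPM in epidermis. The part of those cells in the class II result, or of dermal cells in Cd207 and the other genes of the list, was not tested. Epcam, which Langerhans cells share with follicle keratinocytes, did not pass, at 164, 148 and 166 CPM in epidermis and 165, 144 and 134 CPM in whole skin.

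In the melanocyte list 3 of 6 tested genes were higher, all of them melanosome genes, and 2 lower. Pmel, the fibril protein of melanosomes, was at 6.01, 6.76 and 6.03 CPM in epidermis and 1.95, 0.410 and 1.63 CPM in whole skin (log2 fold change 2.26, SE 0.48, edgeR adjusted p = 0.0072). Dct, dopachrome tautomerase, was at 17.8, 17.7 and 11.4 CPM in epidermis and 9.04, 4.36 and 8.93 CPM in whole skin (log2 fold change 1.08, SE 0.32, edgeR adjusted p = 0.028), and Mlana at 0.871, 2.68 and 2.16 CPM in epidermis and 0.434, 0.205 and 0.302 CPM in whole skin (log2 fold change 2.62, SE 0.52, edgeR adjusted p = 0.00563). Mitf, their transcription factor that other skin cells also use, was 2.70-fold lower, and Ednrb, the endothelin B receptor, 12.4-fold lower (edgeR adjusted p = 0.00249 and 8.45e-05). Merkel cell genes were too low to describe: 3 of 9 passed the filter, the list summed to at most 4.93 TPM in any library, and Krt8 was at 0.523, 0.401 and 0.603 CPM in epidermis and 0.867, 0.924 and 0.724 CPM in whole skin and not called.

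Of 10 upper hair follicle genes 3 were higher and 1 lower (median 0.53), and without Skin WT 1 it was 6 and 1. Defb6, a beta-defensin, was at 301, 189.6 and 282 CPM in epidermis and 113, 75.7 and 88.9 CPM in whole skin (log2 fold change 1.47, SE 0.23, edgeR adjusted p = 0.00194), and Krt79, the keratin of the hair canal, was not called at 1242, 913 and 1081 CPM in epidermis and 916, 661 and 775 CPM in whole skin. Krt75, a keratin of the follicle's companion layer, was the lower one at 3.66, 11.3 and 6.12 CPM in epidermis and 87.3, 89.1 and 101 CPM in whole skin (log2 fold change -3.70, SE 0.37, edgeR adjusted p = 0.000243). In the bulge and germ list 7 of 12 were lower and none higher (median -0.71). Cd34, which bulge cells share with vessels and fibroblasts, was at 55.1, 34.1 and 33.3 CPM in epidermis and 145, 198 and 194 CPM in whole skin (log2 fold change -2.13, SE 0.24, edgeR adjusted p = 0.00046). Lgr5, a stem cell marker of the lower follicle, was at 4.53, 3.61 and 4.40 CPM in epidermis and 8.53, 6.05 and 12.5 CPM in whole skin (log2 fold change -1.11, SE 0.30, edgeR adjusted p = 0.0192), and Lhx2, a bulge transcription factor, was 1.89-fold lower (edgeR adjusted p = 0.00759). Of 22 sebaceous gland genes, 14 were lower and none higher (median -1.26). Soat1, which esterifies cholesterol, was at 17.4, 17.1 and 23.2 CPM in epidermis and 81.6, 109 and 119 CPM in whole skin (log2 fold change -2.43, SE 0.20, edgeR adjusted p = 0.000121). Scd1, the stearoyl desaturase of sebocytes and fat, was at 520.0, 459 and 552 CPM in epidermis and 1055, 4525 and 3495 CPM in whole skin (log2 fold change -2.57, SE 0.48, edgeR adjusted p = 0.00437), with Skin WT 1 the lowest of the whole skin libraries. Mc5r, the melanocortin receptor of sebocytes, was at 0, 0.334 and 0.345 CPM in epidermis and 1.16, 2.36 and 3.80 CPM in whole skin (log2 fold change -3.34, SE 0.73, edgeR adjusted p = 0.00826). Fat also expresses part of this list, among them Scd1, Pparg and Fasn, and the share of fat in these values was not tested.

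Hair shaft and inner root sheath genes varied widely between libraries of the same tissue. Of 24 tested, 1 was higher and 4 lower. The median of -1.28 was -0.06 with limma-voom, -0.67 without Skin WT 1 and -1.86 without Skin WT 2. Krt71, an inner root sheath keratin, was at 1.57, 71.8 and 73.4 CPM in epidermis and 158, 0.257 and 55.9 CPM in whole skin, so Epidermis WT 1 and Skin WT 2 were nearly empty and the other libraries were not. Krt25 followed the same libraries, at 1.83, 50.2 and 64.4 CPM in epidermis and 99.5, 0.103 and 26.6 CPM in whole skin. Neither was called (log2 fold changes -0.54 and -0.11, SE 1.51 and 1.47). Krt86, a hair cortex keratin, was called lower at 0.348, 0.736 and 0 CPM in epidermis and 28.2, 0.0513 and 15.1 CPM in whole skin (edgeR adjusted p = 0.0329), although Skin WT 2 lay among the epidermis values. Krt32, a hair cuticle keratin, was the higher member at 30.5, 29.2 and 41.03 CPM in epidermis and 15.8, 13.03 and 10.3 CPM in whole skin (log2 fold change 1.37, SE 0.21, edgeR adjusted p = 0.00194). Of 7 tested dermal papilla genes 6 were lower (median -3.40), among them Sox18, with no epidermis read and at least 40.4-fold lower. The share of other dermal cells, such as those of vessels, in these values was not tested.

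Genes of the basement membrane were lower more often than higher. Of 22 genes (median -0.39) 3 were higher (13.6%) and 10 lower (45.5%), beside 17.5% and 25.3% of all genes tested. With the length trend removed 7 were higher and 9 lower (median -0.13). Lamb3, Col7a1 and Itgb4, given above, were the 3 higher ones. Nid1, the linker protein nidogen, was at 0.697, 0.201 and 0.172 CPM in epidermis and 52.99, 114 and 109 CPM in whole skin (log2 fold change -8.03, SE 0.52, edgeR adjusted p = 3.91e-05). Col4a1, a chain of the sheet-forming collagen IV, was at 14.8, 13.8 and 8.97 CPM in epidermis and 122, 127 and 178 CPM in whole skin (log2 fold change -3.50, SE 0.25, edgeR adjusted p = 6.17e-05), and Lama2, the laminin chain of muscle and nerve, at 1.48, 2.34 and 1.47 CPM in epidermis and 17.6, 19.2 and 23.05 CPM in whole skin (log2 fold change -3.48, SE 0.25, edgeR adjusted p = 6.27e-05). Col17a1, the hemidesmosome collagen, was not called, at 2601, 2297 and 1821 CPM in epidermis and 1221, 1619 and 1762 CPM in whole skin. Over the whole collagen family, 20 of 32 tested genes were lower and 2 higher, and with the length trend removed 19 and 5. Matrix metalloproteinases were lower in 7 of 11 cases with none higher, and Mmp2 was at 26.05, 17.99 and 21.1 CPM in epidermis and 89.9, 129 and 104 CPM in whole skin (log2 fold change -2.31, SE 0.20, edgeR adjusted p = 0.000146).

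Growth factors and receptors were compared in 34 pairs of a ligand and a receptor. Of 29 ligands tested, 7 were higher and 13 lower, and of 29 receptors none was higher and 15 were lower. Over all genes tested, 17.5% were higher and 25.3% lower. Both genes were tested in 28 pairs, of which 3 had a higher ligand and a lower receptor and 9 had both lower. Pdgfa, a growth factor for fibroblasts, was at 29.8, 31.04 and 38.4 CPM in epidermis and 24.2, 21.3 and 19.2 CPM in whole skin (log2 fold change 0.62, SE 0.16, edgeR adjusted p = 0.0182), and its receptor Pdgfra at 0.0871, 0.334 and 0 CPM in epidermis and 20.5, 19.3 and 25.3 CPM in whole skin (log2 fold change -7.05, SE 0.50, edgeR adjusted p = 5.8e-05). Il34 was higher, as given above, and its receptor Csf1r lower at 14.4, 15.1 and 14.7 CPM in epidermis and 65.1, 68.4 and 76.1 CPM in whole skin (log2 fold change -2.25, SE 0.13, edgeR adjusted p = 2.73e-05). Bmp4 was 1.90-fold higher and Bmpr1a 1.64-fold lower (edgeR adjusted p = 0.00189 and 0.00604). With the length trend removed, Bmpr1a lost its call, and the receptors Egfr and Igf1r were called higher.

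Ligands that act on keratinocytes were low in epidermis in several pairs. Fgf7, the keratinocyte growth factor, had 2 reads in epidermis and 179 in whole skin, a whole skin to epidermis ratio of 68.2 (95% interval 18.6 to 567), and Fgf10 had 1 read in epidermis and 148 in whole skin, a ratio of 113 (95% interval 19.9 to 4484). Their receptor Fgfr2 was not called, at 161, 166 and 125 CPM in epidermis and 108, 150.0 and 159.6 CPM in whole skin (log2 fold change 0.11, SE 0.19, edgeR adjusted p = 0.656). Igf1 had no epidermis read and was at least 349-fold lower, while Igf1r was not called at 28.1, 35.1 and 25.6 CPM in epidermis and 24.4, 42.1 and 42.8 CPM in whole skin. All 8 FGF ligands tested were lower (median -2.17). Egfr, the receptor of Tgfa, Areg and Hbegf, was at 82.9, 93.2 and 73.97 CPM in epidermis and 59.1, 90.1 and 106 CPM in whole skin and was not called (log2 fold change -0.03, SE 0.22, edgeR adjusted p = 0.923). Egfr and Igf1r were called higher with the length trend removed (log2 fold changes 0.59, adjusted p = 0.00279, and 0.40, adjusted p = 0.0226, in edgeR). Nrg1, a ligand of the ErbB receptors, was low in both tissues and higher in epidermis, at 1.57, 1.81 and 0.948 CPM in epidermis and 0.289, 0.564 and 0.181 CPM in whole skin (log2 fold change 2.01, SE 0.48, edgeR adjusted p = 0.0122). Of the vessel pairs, Vegfa and its receptor Kdr were both lower, with Vegfa at 10.5, 9.23 and 7.93 CPM in epidermis and 18.9, 11.8 and 20.03 CPM in whole skin (log2 fold change -0.87, SE 0.24, edgeR adjusted p = 0.0209) and Kdr at 3 reads in epidermis and 528 in whole skin. Of 13 Wnt ligands tested 5 were higher and 3 lower, with a median of 0.14 that was -0.08 with the length trend removed and -0.13 both with total counts and without Skin WT 1. Wnt4 was at 176, 131 and 177 CPM in epidermis and 107, 71.3 and 70.7 CPM in whole skin (log2 fold change 0.96, SE 0.21, edgeR adjusted p = 0.00915) and Wnt3 at 112, 104 and 114 CPM in epidermis and 60.1, 55.9 and 58.3 CPM in whole skin (log2 fold change 0.92, SE 0.12, edgeR adjusted p = 0.000904), both without overlap, and Wnt2, with 3 reads in epidermis and 174 in whole skin, gave a ratio of 44.2 (95% interval 14.9 to 216).

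**Figure D4:**
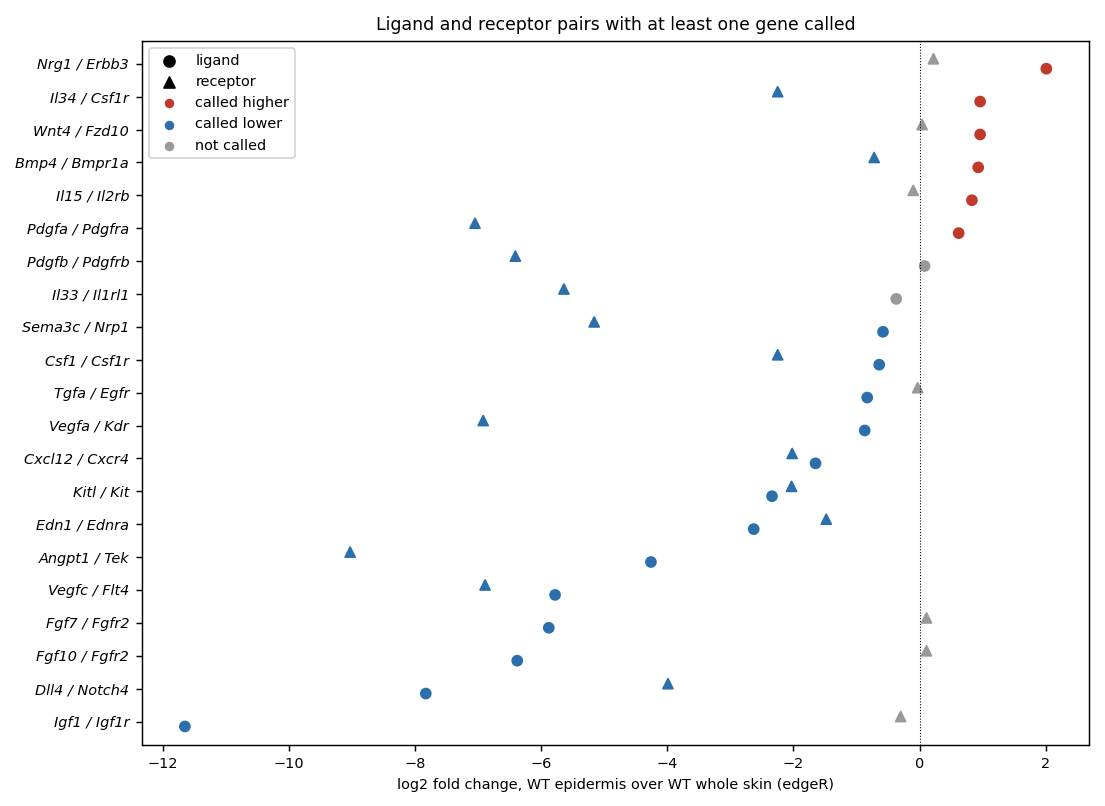
Fitted log2 fold changes, epidermis over whole skin, of the ligand (circle) and the receptor (triangle) of each pair with both genes tested and at least 1 called, coloured by call. Circles range from about -12 for Igf1 to 2.01 for Nrg1, and no triangle is called higher. Igf1 had no epidermis read, so its point depends on the fit's prior count and is no bound.

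Hox genes, which mark body position, moved both ways. Of 23 tested, 6 were higher, from the Hoxa and Hoxb clusters, and 3 lower, from the Hoxc and Hoxd clusters. Hoxa7 was at 119, 92.3 and 159 CPM in epidermis and 12.9, 7.90 and 7.18 CPM in whole skin (log2 fold change 3.73, SE 0.30, edgeR adjusted p = 0.000108), and Hoxb8 at 11.8, 9.50 and 13.7 CPM in epidermis and 1.45, 0.924 and 1.03 CPM in whole skin (log2 fold change 3.37, SE 0.27, edgeR adjusted p = 0.000107). Hoxd9 was at 0.348, 0.334 and 0.431 CPM in epidermis and 12.4, 4.26 and 6.40 CPM in whole skin (log2 fold change -4.34, SE 0.51, edgeR adjusted p = 0.000531), and Hoxd8 at 2.61, 1.61 and 1.98 CPM in epidermis and 36.9, 11.2 and 17.3 CPM in whole skin (log2 fold change -3.40, SE 0.48, edgeR adjusted p = 0.00123). In these 4 genes, named for their small adjusted p, no epidermis value overlapped a whole skin value. That held for 11 of the 23 Hox genes, beside 56.3% of all genes tested.

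Immediate early genes, which cells switch on within minutes of a stimulus without new protein synthesis, held most of the largest rises of the comparison. Of the 23 genes listed as early response or heat shock genes, all tested, 16 were higher and 1 lower (median 2.27), and the counts were 16 and 1 also with total counts and with the length trend removed, and 18 and 1 without Skin WT 1. Of the 12 largest rises under the rule for named genes, 8 were members. The list was written with earlier results of these data known, so this count gives no independent support. Its shares of 69.6% higher and 4.35% lower stand beside 17.5% and 25.3% of all genes tested. Fosb, an AP-1 subunit, measured 976, 1448 and 984 CPM in epidermis and 3.61, 4.31 and 3.50 CPM in whole skin (log2 fold change 8.21, SE 0.28, edgeR adjusted p = 4.62e-06), a rise of 297-fold. Atf3, a stress-induced transcription factor, measured 1734, 2587 and 2076 CPM in epidermis and 27.7, 28.3 and 27.3 CPM in whole skin (log2 fold change 6.26, SE 0.24, edgeR adjusted p = 4.65e-06). Fos measured 2559, 2856 and 2377 CPM in epidermis and 35.7, 54.1 and 51.8 CPM in whole skin (log2 fold change 5.78, SE 0.26, edgeR adjusted p = 7.59e-06). In each of these the 3 whole skin values were close together and the lowest epidermis value was far above them.

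Other AP-1 subunits and feedback regulators followed. Jun was at 1271, 1709 and 1819.9 CPM in epidermis and 123, 110.1 and 107 CPM in whole skin and Junb at 1436, 1790.3 and 1869 CPM in epidermis and 116, 117 and 98.6 CPM in whole skin, with folds of 14.1 and 15.3 (edgeR adjusted p = 1.88e-05 and 1.36e-05). Zfp36, which promotes decay of AU-rich mRNAs, was at 1467, 2137 and 2172 CPM in epidermis and 74.7, 95.6 and 81.9 CPM in whole skin (log2 fold change 4.52, SE 0.24, edgeR adjusted p = 1.66e-05). Egr1 was at 1280.4, 1779 and 1616 CPM in epidermis and 59.1, 87.2 and 81.1 CPM in whole skin (log2 fold change 4.36, SE 0.24, edgeR adjusted p = 1.98e-05), Ier2 18.7-fold higher and Btg2, an antiproliferative early gene, 17.1-fold higher. Nr4a1, an orphan nuclear receptor, was at 502, 959 and 843 CPM in epidermis and 86.7, 13.3 and 30.3 CPM in whole skin (log2 fold change 4.15, SE 0.68, edgeR adjusted p = 0.00235), with Skin WT 1 highest among whole skin. Outside the list, Arc was at 105, 215 and 160.1 CPM in epidermis and 2.89, 2.87 and 2.53 CPM in whole skin (log2 fold change 5.85, SE 0.31, edgeR adjusted p = 1.6e-05), Fosl1 47.5-fold and Nr4a3 24.7-fold higher, also among the 12 largest rises.

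Heat shock genes differed among themselves. Dnajb1, a co-chaperone, was at 499, 699 and 709.6 CPM in epidermis and 122, 146 and 128 CPM in whole skin (log2 fold change 2.27, SE 0.19, edgeR adjusted p = 0.000132), and Hspb1, the small heat shock protein of keratinocytes, 2.61-fold higher. Hspa8, the constitutive chaperone, was at 1873, 1976 and 2161 CPM in epidermis and 1782, 1483 and 1348 CPM in whole skin and was not called. Hspa1a, Hspa1b and Hsp90aa1 were not called either, with log2 fold changes of 0.08, -0.05 and -0.05. Hsph1 was lower at 68.4, 74.05 and 71.7 CPM in epidermis and 99.3, 99.2 and 90.98 CPM in whole skin (log2 fold change -0.43, SE 0.12, edgeR adjusted p = 0.0228).

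In the list of stress keratins and alarmins 4 of 14 tested genes were higher and 2 lower, with a median of 0.13 that was -0.11 with total counts and -0.31 with the length trend removed. Its higher members included some ligands of the EGF receptor. Other ligands of this receptor among the pairs were not higher: Tgfa was lower (log2 fold change -0.83) and Btc was not called (-0.8). Areg, amphiregulin, was at 34.6, 70.8 and 73.7 CPM in epidermis and 8.67, 5.44 and 3.68 CPM in whole skin (log2 fold change 3.34, SE 0.40, edgeR adjusted p = 0.000569), and Hbegf, heparin-binding EGF-like growth factor, at 41.2, 79.9 and 86.98 CPM in epidermis and 6.36, 4.46 and 6.33 CPM in whole skin (log2 fold change 3.60, SE 0.32, edgeR adjusted p = 0.000153). Both are released from the membrane by ADAM17, whose own gene was intact in both groups and did not pass the test, at 77.9, 83.8 and 79.3 CPM in epidermis and 74.7, 94.6 and 93.5 CPM in whole skin (log2 fold change -0.12, SE 0.14, edgeR adjusted p = 0.504). Cxcl1, a neutrophil chemokine, was low in both tissues and higher in epidermis, at 0.958, 2.47 and 1.90 CPM in epidermis and 0.145, 0.154 and 0 CPM in whole skin (log2 fold change 4.05, SE 0.69, edgeR adjusted p = 0.00278). Krt6a, a keratin of wounded epidermis and of the follicle's companion layer, was lower at 61.2, 49.5 and 48.6 CPM in epidermis and 305, 201 and 309 CPM in whole skin (log2 fold change -2.36, SE 0.21, edgeR adjusted p = 0.000164), and Krt16 and S100a8 were not called (log2 fold changes -0.06 and -0.15).

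**Figure D5:**
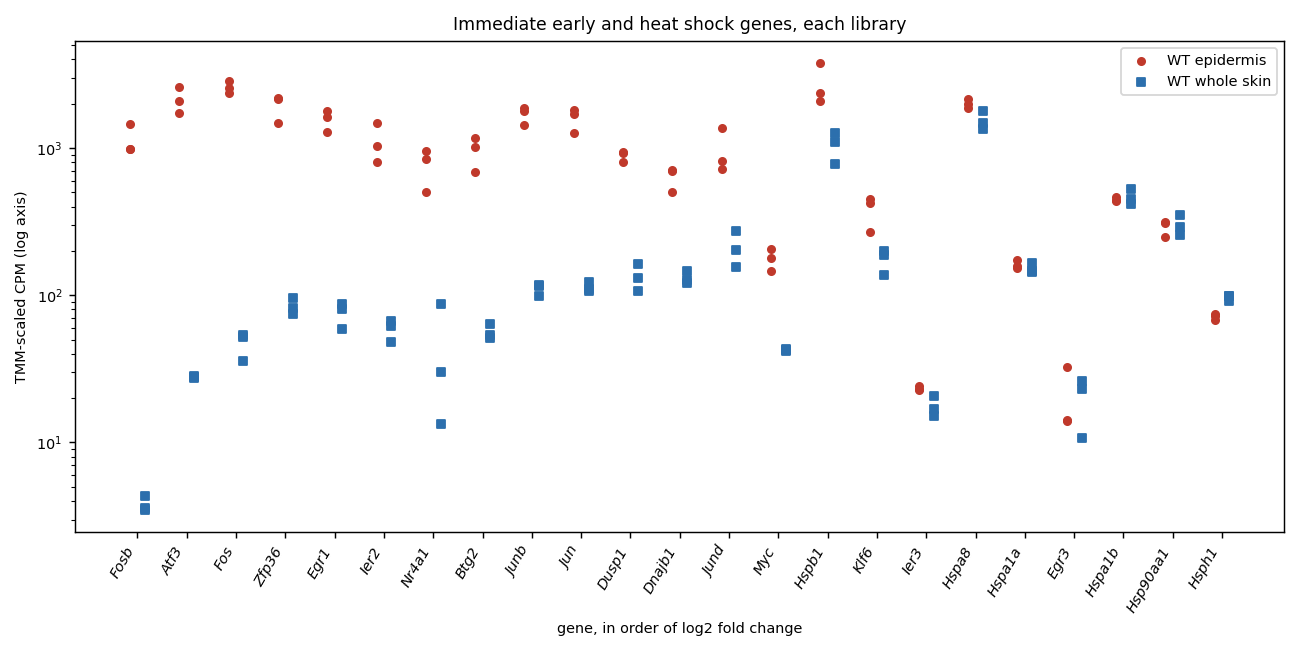
TMM-scaled CPM on a log axis of the 23 tested immediate early and heat shock genes in each epidermis library (circles) and each whole skin library (squares), in order of fold change. From Fosb to Myc the groups are apart, and from Hspa8 to Hsph1 they are close or overlap.

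The promoters of 4 of these genes are shown, since they rose most or, for Zfp36, hold a CArG box, the binding letters of serum response factor. They are the 250 bases before each start in RefSeq (GRCm38.p6), at chr12:85473640-85473889, plus strand for Fos, chr7:19310046-19310295, minus strand for Fosb, chr1:191183334-191183583, minus strand for Atf3 and chr7:28379229-28379478, minus strand for Zfp36. Capitals mark TGACG, the core letters of cyclic AMP response elements, on either strand in Fos, Fosb and Atf3, the TATA box TATAAA in Fos, and the CArG box in Zfp36.
Fos: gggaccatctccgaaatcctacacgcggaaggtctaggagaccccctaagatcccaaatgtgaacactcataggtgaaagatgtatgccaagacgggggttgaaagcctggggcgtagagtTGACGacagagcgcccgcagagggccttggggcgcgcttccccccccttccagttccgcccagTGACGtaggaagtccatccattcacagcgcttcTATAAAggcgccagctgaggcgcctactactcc
Fosb: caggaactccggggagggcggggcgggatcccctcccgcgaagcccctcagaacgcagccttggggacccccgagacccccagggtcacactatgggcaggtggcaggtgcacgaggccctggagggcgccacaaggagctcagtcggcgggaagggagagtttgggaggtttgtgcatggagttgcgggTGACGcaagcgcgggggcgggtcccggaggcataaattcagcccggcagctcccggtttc
Atf3: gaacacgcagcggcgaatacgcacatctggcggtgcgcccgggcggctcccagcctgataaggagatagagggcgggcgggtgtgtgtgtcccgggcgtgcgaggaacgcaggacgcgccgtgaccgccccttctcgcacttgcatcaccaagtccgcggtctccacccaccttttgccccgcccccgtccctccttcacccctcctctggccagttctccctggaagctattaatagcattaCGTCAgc
Zfp36: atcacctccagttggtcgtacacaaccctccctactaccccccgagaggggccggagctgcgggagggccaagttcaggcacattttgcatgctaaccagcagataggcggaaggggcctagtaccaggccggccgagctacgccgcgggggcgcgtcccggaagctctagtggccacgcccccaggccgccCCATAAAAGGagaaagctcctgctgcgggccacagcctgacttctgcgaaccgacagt
TGACG and the CArG box were added to the search after these genes were seen. TGACG stood in 9 of 14 windows (64.3%) of the called members of the list, in 37 of 76 (48.7%) of all genes called at least 4-fold higher and in 29.4% of the windows of genes tested. A CArG box stood in 7.89% of the windows of genes at least 4-fold higher and in 1.34% of those of genes tested. Among the called members of the list it stood in 1 of 14 windows (7.14%). The AP-1 motif TGANTCA stood in 5.26% of the windows of genes at least 4-fold higher, in 5.70% of those of genes tested and in 0 of 14 of the list. Of the 129 genes at least 4-fold higher, 61 had a window in the table, so the shares describe fewer than all of them.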

How the data were processed

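RNA-seq of 6 wild type libraries was analysed, 3 of epidermis and 3 of whole skin. The deposited tables give, per gene, an expected count from RSEM, TPM and an effective length in bases, per the file headers. STAR 2.5.1, RSEM, bcl2fastq 2.17 and the build mm10 are named in the submitters' processing notes. Which gene annotation was counted, and with what strand setting, is not given in the sources used here, so reads of overlapping or antisense genes may not be separable. Per the labels, groups came from sample titles.

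The deposited expected counts were rounded to whole numbers. Genes were kept by edgeR's filterByExpr, scaled by TMM and tested with edgeR's quasi-likelihood test (edgeR 4.0.16, R 4.3.3), with p-values adjusted by Benjamini-Hochberg over the 14596 genes and a threshold of 0.05. The standard error is the absolute log2 fold change divided by the square root of the test's F. TPM and effective lengths deposited by the authors served for levels between genes and for the length trend. At depths of 12208522 to 16743144 counts, 3 counts equal 0.154 to 0.261 TMM-scaled CPM. In simulated counts for this comparison over 14366 genes, 41 of 50 genes made 4-fold higher and 44 of 50 made 4-fold lower were recovered, and of genes changed 2-fold 21 of 50 and 14 of 50, with 14 false calls. The simulation changed only 50 genes at each fold and held no length trend. Far more genes differed in the data, with 2561 called higher and 3697 lower, so these rates need not hold there.

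Genes were named by a rule: the 12 largest rises and falls with at least 5 CPM in the higher group and no overlap, the 6 smallest adjusted p-values each way, a few members of each list and family by adjusted p, the ligand and receptor pairs with a called gene, the 10 most abundant genes of each tissue by TPM, defining markers, and Adam17. The members, the 33 lists, 23 families and 34 pairs were chosen with earlier results of these data known. The ribosomal protein and major urinary protein families, and Apoe, Dnajb1, Elf3, Fasn, Hes1, Hsp90aa1, Hspa1a, Hspa1b, Hspb1, Jun, Kprp, Krt16, Lce1l, Malat1, Mt1, Mt2, Myc, Rn7sk, S100a8, Socs3 and mt-Rnr2, were chosen after their values were seen. Symbols and positions came from matching the deposited gene IDs to GENCODE release M21 (GRCm38), which matched 39106 IDs with their version and 47224 without it. In none of the 6 wild type libraries did the 419 IDs without a match exceed 0.0438% of the counts. Promoter sequences came from RefSeq. Values of some list members are not reported here. Alternatives were DESeq2 1.42.0, limma-voom (limma 3.58.1), other scalings, effective length offsets, no filter, a fit of all 12 libraries, a 2-fold minimum, the replicate number as a block, no mitochondrial transcripts, the length trend removed and each library left out.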

Additional observations from a re-analysis of the deposited data

How the results depend on the processing

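Over 18 alternatives, 83 of the 139 named genes that were called kept their call in every one, and 114 in every one but the 2-fold minimum. That minimum left 2062 genes, 208 higher and 1854 lower. With total counts 1333 genes were higher. Leaving out 1 library gave 1382 to 3388 higher genes, the fewest without Skin WT 3. With the length trend removed 4 genes that had not been called changed sign and were called higher, at 0.57 for Dsp, 0.59 for Egfr, 0.40 for Igf1r and 0.50 for Tnxb. Without Skin WT 1 no call of a named gene was lost. Other libraries each took between 6 and 11 calls: Hsph1 was lost without any 1 of those 5, Gja1 likewise, Krt86, Lgr5, Flg, Pdgfa, Casp14, Vegfa, Hba-a1, Dct, Itgb4, Tgfa and Sox9 without some, Elf3 without Epidermis WT 1 or Epidermis WT 3, Kprp without Epidermis WT 1, Nrg1 without Epidermis WT 2 and Cbr2 without Skin WT 3. The length trend removed ended the calls of Bmpr1a, Cbr2, Defb6, Hba-a1, Krtdap, Lgr5 and Tyms, and total counts those of Casp14, Dct, Itgb4 and Pdgfa. List medians with total counts were -0.32 for barrier lipid enzymes, 0.17 for junctions, 0.03 for keratinocyte transcription factors, -0.38 for immune factors, -1.48 for Langerhans cells, -0.18 for dendritic epidermal T cells, 0.56 for alpha-beta T and B cells and 0.10 for proliferation. With the length trend removed they were -1.59 for Langerhans cells, -0.31 for dendritic epidermal T cells, -3.96 for dermal papilla, 0.27 for alpha-beta T and B cells and -0.87 for mitochondrial transcripts. DESeq2 and limma-voom gave -8.60 and -8.57 for adipocytes and -6.81 and -6.72 for macrophages, and limma-voom -7.16 for mast cells. Leaving out 1 library gave -3.85 to -3.02 for dermal papilla, -8.29 to -6.84 for lymphatic endothelium, -8.97 to -7.36 for mast cells and 0.59 to 1.02 for alpha-beta T and B cells. For hair shaft and inner root sheath, limma-voom gave -0.06, the block -0.87, and leaving out 1 library -1.86 to -0.67. The cause of these moves was not tested. Deviations from the tissue mean correlated at -0.0578, 0.115 and -0.433 between same-numbered libraries. Between differently numbered ones they ranged from -0.36 (Skin WT 1 with Epidermis WT 2) to 0.473 (Skin WT 3 with Epidermis WT 2). With 3 libraries a tissue, these values cannot show whether libraries share mice, under these or other numbers. With the number as a block 1905 genes were higher and 3326 lower, with 7 named calls lost (Casp14, Flg, Gja1, Hsph1, Krt1, Krt10 and Krt86). Genes near 0.154 to 0.261 CPM rest on about 3 counts a library.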

Other observations

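Genes outside the lists were looked at after their values were seen. All 77 genes of cytosolic ribosomal proteins that were tested were higher in epidermis, with a median log2 fold change of 1.32 and no overlap between the groups in any of them, beside 17.5% of all genes tested called higher and 56.3% without overlap. Rps19, a small subunit protein, was at 2952, 2686 and 3317 CPM in epidermis and 1068, 881 and 692 CPM in whole skin (log2 fold change 1.76, SE 0.22, edgeR adjusted p = 0.000693). Per length the family took 283907 to 312639 TPM in epidermis and 155303 to 187541 TPM in whole skin. Ribosomal protein transcripts are short, and with the length trend removed 68 of 77 were higher with a median of 0.68. The part of length in the rest was not tested. Of 391 processed pseudogenes tested, 202 (51.7%) were higher and 12 lower, and they may share reads with the genes of which they are copies.

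Of 163 long intergenic non-coding RNAs tested, 43 were higher (26.4%) and 22 lower (13.5%), beside 17.5% and 25.3% of all genes tested. Of other RNA classes, 4 of 4 small nucleolar RNAs, 2 of 2 ribozymes, 2 of 2 mitochondrial ribosomal RNAs and 1 of 1 other ribosomal RNA were higher. Of 4 miscellaneous RNAs, 2 were higher and 0 lower. How well the mRNA kit captured these classes, or Rmrp, Rn7sk and mt-Rnr2 given below, was not tested. Rmrp, an RNA of ribosomal RNA processing and 1 of the 12 largest rises, was at 11.8, 6.89 and 9.66 CPM in epidermis and 1.08, 0.257 and 0.181 CPM in whole skin (log2 fold change 4.28, SE 0.57, edgeR adjusted p = 0.000967), and Rn7sk, which restrains transcription elongation, at 64.2, 48.4 and 95.8 CPM in epidermis and 10.6, 3.03 and 1.51 CPM in whole skin (log2 fold change 3.81, SE 0.65, edgeR adjusted p = 0.00289), with Skin WT 1 the highest of the whole skin libraries in both. Malat1, a nuclear long RNA, was at 114, 183 and 161 CPM in epidermis and 23.3, 36.1 and 31.4 CPM in whole skin (log2 fold change 2.33, SE 0.24, edgeR adjusted p = 0.00027), and mt-Rnr2, the large mitochondrial ribosomal RNA, at 914, 939 and 1094 CPM in epidermis and 412, 269.9 and 254 CPM in whole skin (log2 fold change 1.65, SE 0.23, edgeR adjusted p = 0.00108). Of the 13 protein-coding mitochondrial transcripts none was higher and 1 lower, or 8 lower with the length trend removed. Mt1 and Mt2, the metal-binding metallothioneins, were 5.72-fold and 5.64-fold higher (edgeR adjusted p = 0.00103 and 0.000548), and Apoe, apolipoprotein E, was at 6269.8, 4663 and 8096 CPM in epidermis and 3228, 2398 and 2416 CPM in whole skin (log2 fold change 1.24, SE 0.26, edgeR adjusted p = 0.00706). Socs3, a feedback inhibitor of cytokine signalling, was at 307, 336 and 352 CPM in epidermis and 26.5, 38.1 and 31.7 CPM in whole skin (log2 fold change 3.37, SE 0.18, edgeR adjusted p = 1.79e-05), and Hes1, a Notch target, at 259, 372 and 580.2 CPM in epidermis and 39.8, 38.5 and 28.3 CPM in whole skin (log2 fold change 3.51, SE 0.32, edgeR adjusted p = 0.000178). A run of 9 neighbouring major urinary protein genes on chromosome 4 was lower throughout, and Mup10 had 2 reads in epidermis and 10233 in whole skin, a ratio of 3898 (95% interval 1079 to 32195). These genes are near-identical copies, and the split of reads between them is uncertain.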
